A study of Homo sapiens with 12 samples.

Results

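Fatty acid oxidation and ketogenesis were followed through 32 genes chosen by function, from the enzymes that activate fatty acids to those that handle ketone bodies, in Huh7 cells treated with the drug Molidustat. All 32 genes were among the 60666 listed in the count files. Of these, 29 had enough reads to be among the 14274 genes tested, and ACSL5, ACADL and BDH1 did not. Huh7 cells are an established line from a human hepatocellular carcinoma. Molidustat blocks the prolyl hydroxylases whose activity sends the HIF-α transcription factors to degradation. Cells were grown in DMEM with Glutamax, high glucose, fetal calf serum and antibiotics, and received either Molidustat at 25 µM or DMSO alone, with RNA taken at 24 h and at 48 h. Every group thus shared the high-glucose medium, and the sources used here describe no fasting and no added fatty acids. There were 3 libraries in each of the 4 groups, 12 in all. The study's record speaks of RNA extractions in triplicate and its methods of biological replicates, so the spread between libraries, on which every p-value rests, may be partly technical. A single cell line was used.

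Long-chain fatty acids enter oxidation as acyl-CoA esters, made by acyl-CoA synthetases. The carnitine shuttle carries them into mitochondria, and its outer-membrane enzyme CPT1A is the main point of control. Inside, a spiral of dehydrogenation, hydration, a second dehydrogenation and thiolysis releases acetyl-CoA, while ETFA, ETFB and ETFDH pass the electrons to ubiquinone. Peroxisomes shorten very long and branched chains. In liver, acetyl-CoA from oxidation feeds ketone body synthesis, and the nuclear receptor PPARA with its coactivator PPARGC1A drives many of these genes.

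The libraries held between 2312396 and 9179389 counts on genes, except DMSO 48 h replicate 2, which held 1499273. That library stood apart in other ways. Reads on no annotated feature made up 50.4% of its listed reads, against 17.1 to 25.6% in the other 11, and its TMM scaling factor was 0.629, against 1.01 to 1.08. The 32 genes took 0.0954% of its counts, against 0.249 to 0.357% in the other libraries. After TMM scaling their summed level was 1523.49 CPM (counts scaled to a common library size), against 2474.17 to 3373.65. It was the lowest of the 3 DMSO 48 h libraries for 22 of the 29 tested genes, or 75.9%, while it was the lowest for 52.7% of all genes tested. The median difference of its log2 CPM from the other DMSO 48 h libraries was -1.12 over the 29 genes and -0.31 over all genes tested. In bulk RNA, fewer cells that express a gene and less of its RNA per cell cannot be told apart. Counts of calls are given with this library and without it. Leaving it out turned the sign of the 48 h change for 6 genes, ACSL1, SLC25A20, ECHS1, ECI2, ETFA and PPARGC1A, none of which was called either way.

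**Figure D1:**
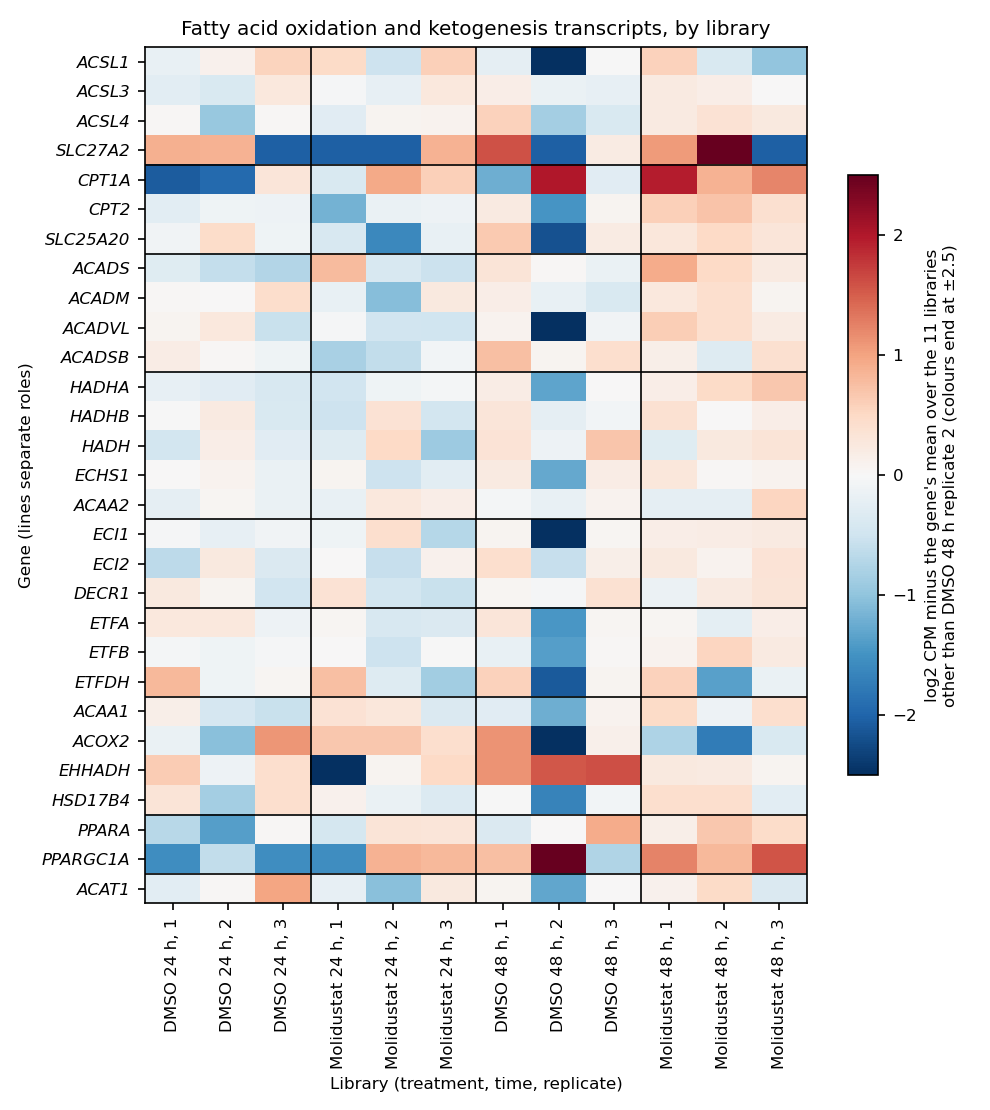
Level of the 29 tested genes (rows, grouped by role) in each of the 12 libraries (columns), as log2 CPM minus the gene's mean over the 11 libraries other than DMSO 48 h replicate 2, with red above and blue below that mean. The column of DMSO 48 h replicate 2 is mostly blue (the lowest of its group in 22 of 29 genes), with CPT1A, PPARGC1A and EHHADH clearly in red.

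The labels were checked against markers. All 11 hepatocyte markers were detected, and AFP, the most abundant of them, lay between 3910 and 10300 CPM. Their summed level was 14491.7 to 31413.2 CPM in 11 libraries and 9441.16 CPM in DMSO 48 h replicate 2. In the other 5 DMSO libraries it was 14491.7 to 19476.8 CPM. With Molidustat it was 19964.2 to 27310.8 CPM at 24 h and 28183.5 to 31413.2 CPM at 48 h. The sum follows its most abundant genes, and not every marker rose. At 48 h APOB had a mean of 1228 CPM with DMSO and 894 CPM with Molidustat. The means of HNF4A there were 506 and 136 CPM, but 140 CPM with DMSO without replicate 2. The part of the shift of the sum in the results below was not tested. Markers of other cell types were near 0, apart from LYZ in the leukocyte list, at 42.9 to 232 CPM. Among the leukocyte genes CD3E was at 0 in every library and the highest level of any gene other than LYZ was 10.3 CPM. The fibroblast list summed to at most 23.8 CPM and the endothelial list to at most 6.45 CPM, with VWF at 0. The HIF target BNIP3, a mitophagy receptor, lay between 103 and 207 CPM in the 6 DMSO libraries and between 975 and 1232 CPM in the 6 Molidustat libraries, without overlap. Averaged over both time points, BNIP3 rose by 2.74 on the log2 scale (SE 0.24, Benjamini-Hochberg adjusted p = 1.36e-05 in edgeR's quasi-likelihood test). In that test 7 of 9 tested HIF response genes were called higher, where 1.07% of all genes were called in either direction. EGLN3 (adjusted p = 0.7) and ANKRD37 (adjusted p = 0.611) were not called, and CA9 was not tested. These genes were chosen with earlier results of these data known, so their calls are a check of the labels only.

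The first question was whether Molidustat changed the transcripts of the oxidation and ketogenesis machinery. None of the 29 genes was called, that is, had an adjusted p under 0.05 in edgeR's quasi-likelihood test fitted across all genes, at 24 h, at 48 h or in the average of both. Across all genes tested, 0.231% were called at 24 h, 0.231% at 48 h and 1.07% in the average. At an unadjusted p under 0.05 the count of members was again 0 in each comparison, where 5.25%, 13.3% and 11% of all genes passed. The lowest unadjusted p of any member was 0.0699 at 24 h, 0.073 at 48 h and 0.0658 in the average. DESeq2 called 0 members in the same comparisons, where it called 0.97%, 2.83% and 2.37% of the genes to which it gave an adjusted p. Limma-voom with sample quality weights called 0 of 29 at 24 h (0.448% of all genes) and 1 of 29, CPT1A, at 48 h (2.13%) and in the average (3.03%), so that 1 member was near the share of all genes.

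Without DMSO 48 h replicate 2, 30 members could be tested, since ACADL then passed the filter, and edgeR again called 0 of them at 24 h, 48 h and in the average. Of all genes, 0.774%, 0.347% and 1.81% were called. At an unadjusted p under 0.05, the members numbered 0 at 24 h (9.03% of all genes), 1 higher and 1 lower at 48 h (6.6%), and 1 higher and 1 lower in the average (11.9%). Those were CPT1A, higher in both, ACOX2, lower at 48 h, and ACADSB, lower in the average.

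The members' median log2 fold change was -0.09 at 24 h, where 14 were above 0 and 15 below, and 0.33 at 48 h, where 22 were above 0 and 7 below. The medians of all genes tested were 0.02 and 0.01. Without DMSO 48 h replicate 2 the members' median at 48 h was 0.07, with 19 above 0 and 11 below. In the average of both time points it was 0.16 with all libraries and 0.02 without that library.

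The intervals show how large a change could have been missed. In the average of both time points, the 95% interval of the log2 fold change lay wholly within -1 to 1 for 17 of 29 members (58.6%), against 36.5% of all genes tested. Without DMSO 48 h replicate 2 it did so for 21 of 30 (70%), against 44.1%. For those genes a change of more than 2-fold in either direction lay outside the interval. With all libraries, the median SE in the average was 0.288 for the members and 0.38 for all genes tested. The shares depend on this precision as well as on the changes. At single time points the intervals were wider, with 10 of 29 members within those limits at 24 h (34.5%, against 16.8% of all genes) and 5 of 29 at 48 h (17.2%, against 14%). With DMSO 48 h replicate 2 left out the counts were 16 of 30 at 24 h (53.3%, against 28.3%) and 13 of 30 at 48 h (43.3%, against 22.4%).

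**Figure D2:**
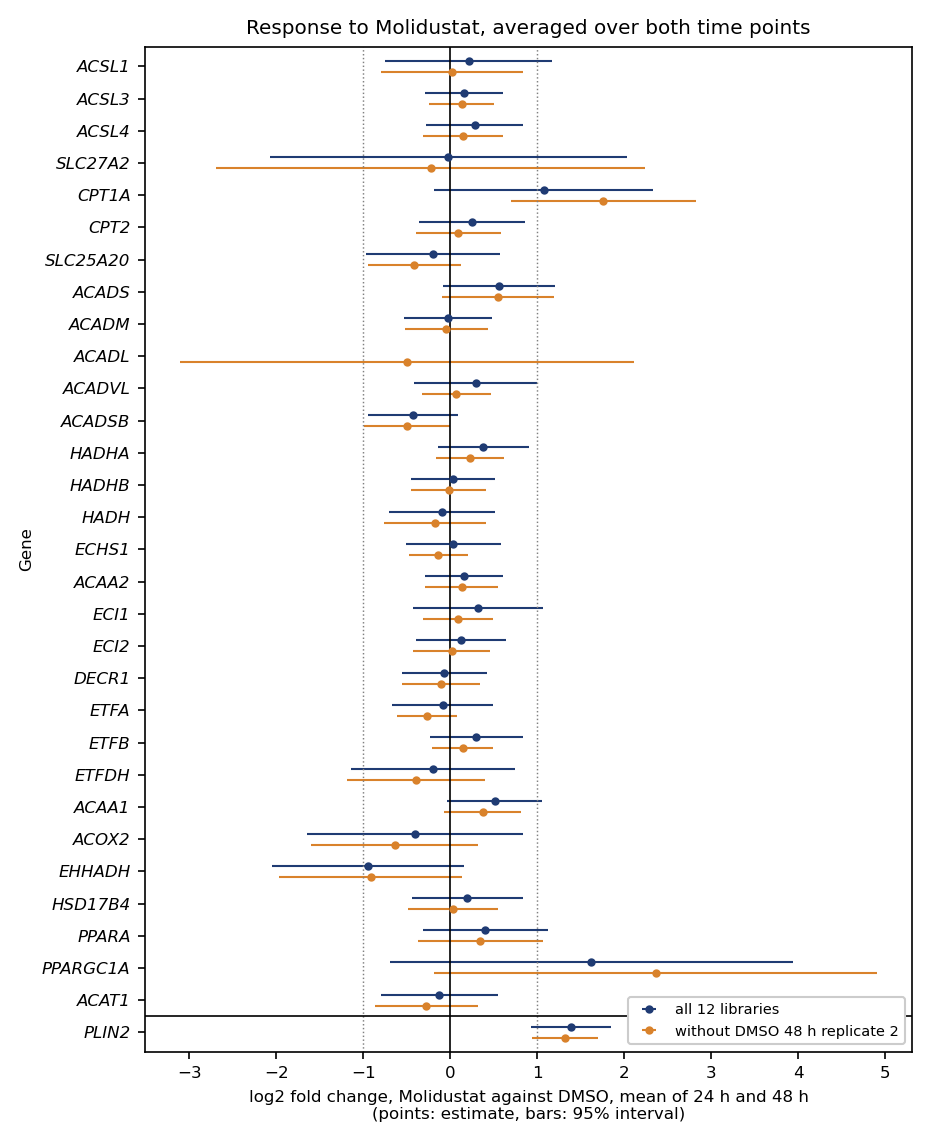
Log2 fold change of Molidustat against DMSO, averaged over 24 h and 48 h (x axis), for each tested member and PLIN2 (y axis), with points for estimates and bars for 95% intervals, in blue for all 12 libraries and in orange without DMSO 48 h replicate 2. The dotted lines mark log2 changes of -1 and 1. Most intervals cross 0 and stay between the lines, the orange intervals of CPT1A (0.70 to 2.82) and ACADSB (-0.99 to -0.0078) do not reach 0, and both intervals of PLIN2 lie clear of 0.

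Fatty acid activation and uptake was represented by ACSL1, ACSL3, ACSL4, ACSL5 and SLC27A2, which make acyl-CoA from long and very long chains. The averaged log2 fold change was 0.21 (SE 0.45) for ACSL1, 0.16 (SE 0.21) for ACSL3 and 0.28 (SE 0.26) for ACSL4. ACSL3, an acyl-CoA synthetase found on endoplasmic reticulum and lipid droplets, lay between 234 and 366 CPM in every library, with the groups overlapping at both times. ACSL1, the main synthetase of liver, lay between 1.06 and 14.8 CPM. SLC27A2, a transporter with synthetase activity, was at 0 counts in 5 of the 12 libraries and at most 10.3 CPM in the others, so its interval in the average, from -2.08 to 2.03, sets little limit. ACSL5 was seen in 2 libraries, at 0.62 CPM in DMSO 24 h replicate 3 and 1.55 CPM in DMSO 48 h replicate 3.

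The carnitine shuttle held CPT1A, the member with the lowest p without DMSO 48 h replicate 2, at 48 h and in the average. CPT1A, which makes acylcarnitine at the outer mitochondrial membrane, was counted at 1.38, 1.54 and 8.88 CPM in the DMSO 24 h libraries. It was at 5.38, 14.2 and 11 CPM with Molidustat at 24 h. At 48 h it was at 2.85, 29.8 and 5.79 CPM with DMSO and at 29.0, 13.3 and 17.3 CPM with Molidustat. The groups overlapped at 24 h through DMSO replicate 3, and at 48 h through DMSO replicate 2 alone, which had the highest value of all 12 libraries and rested on 28 counts. With all libraries, the log2 fold change of CPT1A was 1.34 at 24 h (SE 0.84, adjusted p = 0.999), 0.81 at 48 h (SE 0.84, adjusted p = 0.75) and 1.07 in the average (SE 0.59, adjusted p = 0.523). Without that library it was 2.18 at 48 h (SE 0.76, unadjusted p = 0.0108, adjusted p = 0.479) and 1.76 in the average (SE 0.51, unadjusted p = 0.00268, adjusted p = 0.101), neither of which passed. On leaving out each library in turn, CPT1A ranged at 48 h from 0.30 (without DMSO 48 h replicate 1) to that 2.18, at 24 h from 0.93 (without DMSO 24 h replicate 1) to 2.79 (without DMSO 24 h replicate 3), and in the average from 0.82 to 1.79, with edgeR calling it in none of these fits. Limma-voom, which gives poor libraries less weight, called CPT1A at 48 h (2.06, adjusted p = 0.0144) and in the average (1.97, adjusted p = 0.021). DESeq2 without DMSO 48 h replicate 2 called it in the average (1.79, adjusted p = 0.0182), as 1 of 30 members with an adjusted p, where 3.44% of all genes with one were called. The call for CPT1A thus differed between these fits.

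SLC25A20, the carnitine-acylcarnitine carrier of the inner membrane, was at 37.4, 55.1 and 36.8 CPM with DMSO and 30.1, 12.7 and 35.2 CPM with Molidustat at 24 h, and was the only member whose 24 h groups did not overlap. The levels at 48 h were 63.0, 8.52 and 46.3 CPM with DMSO and 48.3, 56.6 and 49.0 CPM with Molidustat. Its log2 fold change was -0.73 at 24 h (SE 0.52, adjusted p = 0.999) and 0.33 at 48 h (SE 0.51, adjusted p = 0.844). The 48 h value turned to -0.11 (SE 0.37, adjusted p = 0.997) without DMSO 48 h replicate 2. CPT2, which turns acylcarnitine back to acyl-CoA, was at 39.0, 11.7 and 34.6 CPM with DMSO and at 50.1, 54.5 and 44 CPM with Molidustat at 48 h, without overlap. Its change there was 0.75 (SE 0.41, adjusted p = 0.467), and 0.41 (SE 0.35, adjusted p = 0.947) without DMSO replicate 2. Exons of CPT2 overlap those of CZIB on the opposite strand, and the strand setting of the counting is not given in the sources used here.

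**Figure D3:**
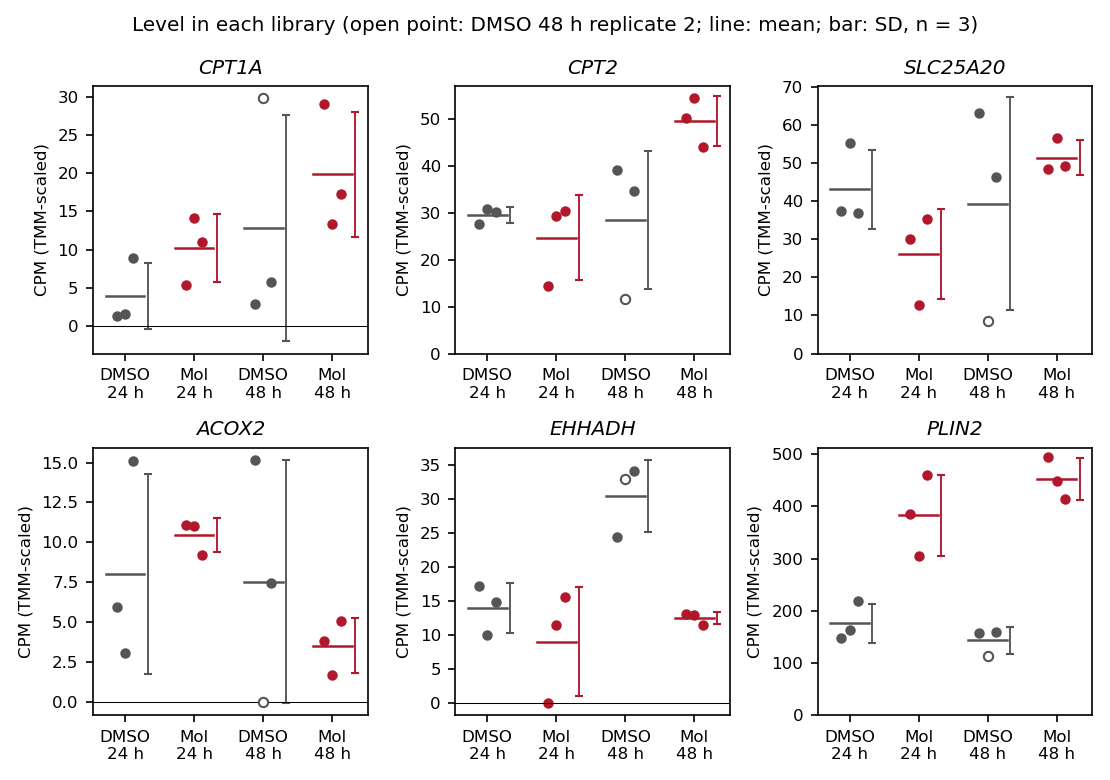
CPM after TMM scaling (y axis) of CPT1A, CPT2, SLC25A20, ACOX2, EHHADH and PLIN2 in each library of the 4 groups (x axis), with lines for group means, bars for SD (n = 3) and an open point for DMSO 48 h replicate 2. The open point is the highest DMSO value of CPT1A (29.8 CPM) and the lowest of CPT2, SLC25A20, ACOX2 and PLIN2, and PLIN2 is the panel in which Molidustat and DMSO are apart at both times.

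Of all genes tested, 12.3% had Molidustat and DMSO groups that did not overlap at 24 h, against 1 of 29 members (3.45%). At 48 h the shares were 18% of all genes and 5 of 29 members (17.2%), with CPT2, ACADVL, ECI1 and ETFB above and EHHADH below. Without DMSO 48 h replicate 2 they were 29.1% of all genes and 10 of 29 members (34.5%), with CPT1A and PPARGC1A added above and ACADSB, HADH and ACOX2 added below. The members' shares at 48 h were near those of all genes.

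The acyl-CoA dehydrogenases open each turn of the spiral, each for a range of chain lengths. ACADVL, for very long chains, was at 119, 136 and 77.3 CPM with DMSO and 112, 81.3 and 80.8 CPM with Molidustat at 24 h. At 48 h it was at 120, 18.1 and 107 CPM with DMSO and at 175, 152 and 130 CPM with Molidustat, and its change was 0.86 (SE 0.47, adjusted p = 0.469), or 0.41 (SE 0.28, adjusted p = 0.905) without DMSO replicate 2. Its exons overlap those of DLG4 on the opposite strand. ACADM, for medium chains, changed by -0.03 in the average (95% interval -0.54 to 0.48), and ACADS, for short chains, by 0.56 (-0.08 to 1.21). ACADSB, which acts on short branched chains, was at 34.9, 31.2 and 28.1 CPM with DMSO and 17.2, 19.7 and 29.0 CPM with Molidustat at 24 h. The 48 h levels were 51.8, 31.9 and 40.7 CPM with DMSO and 33.7, 24.5 and 40.4 CPM with Molidustat. The ACADSB groups overlapped at 24 h and at 48 h, and the averaged change was -0.43 (SE 0.24, adjusted p = 0.541) and -0.50 (SE 0.23, adjusted p = 0.41) without DMSO 48 h replicate 2. ACADL, the long-chain enzyme, was seen in 7 libraries with at most 13 counts.

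Each member of the later steps of the spiral had an averaged interval within -1 to 1. HADHA and HADHB are the subunits of the mitochondrial trifunctional protein, which carries out the last steps on long chains. Their averaged changes were 0.38 (95% interval -0.14 to 0.91) and 0.03 (-0.45 to 0.51). ECHS1, the short-chain hydratase, changed by 0.03 (-0.51 to 0.58), HADH, the short-chain hydroxyacyl-CoA dehydrogenase, by -0.10 (-0.71 to 0.51), and ACAA2, a mitochondrial thiolase, by 0.16 (-0.29 to 0.61). ECHS1 was at 350, 369 and 308 CPM with DMSO and 361, 241 and 288 CPM with Molidustat at 24 h. At 48 h ECHS1 was at 405, 142 and 392 CPM with DMSO and 419, 353 and 367 CPM with Molidustat, so the groups overlapped at both times. HADHA, HADHB and ACAA2, like ACSL3 and SLC25A20, have named pseudogenes. Their reads could have been set aside as not unique or given to those.

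HADHA and HADHB face away from each other on chromosome 2, with start sites 306 bases apart in RefSeq (GRCh38). The promoter windows used here reach from 250 bases before a start to 50 after it, and those of the pair share 194 bases at chr2:26244689-26244882. The stretch is shown, on the plus strand, because it lies between the start sites of both subunits of this complex, and neither transcript was called.
HADHA and HADHB shared: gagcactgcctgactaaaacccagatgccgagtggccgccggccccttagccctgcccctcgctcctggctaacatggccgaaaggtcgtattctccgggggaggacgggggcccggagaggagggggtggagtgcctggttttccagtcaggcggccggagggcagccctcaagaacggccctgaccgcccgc

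Enzymes for unsaturated chains move double bonds so that the spiral can go on. ECI1, an isomerase, was at 190, 26.6 and 188 CPM with DMSO and at 203, 205 and 212 CPM with Molidustat at 48 h, without overlap. Its change there was 0.60 (SE 0.50, adjusted p = 0.675), and 0.12 (SE 0.29, adjusted p = 0.997) without DMSO replicate 2. ECI2, a second isomerase, and DECR1, the dienoyl-CoA reductase, changed by 0.12 (SE 0.24) and -0.07 (SE 0.23) in the average.

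Electron transfer from the acyl-CoA dehydrogenases needs ETFA and ETFB, the subunits of the soluble carrier, and ETFDH, which hands the electrons to ubiquinone. ETFB was at 386, 167 and 445 CPM with DMSO and at 466, 636 and 510 CPM with Molidustat at 48 h, with a change of 0.69 (SE 0.36, adjusted p = 0.437), or 0.36 (SE 0.25, adjusted p = 0.905) without DMSO replicate 2. ETFA, its partner, was at 599, 178 and 502 CPM with DMSO and at 504, 411 and 548 CPM with Molidustat, and its groups overlapped. The averaged change was -0.09 (SE 0.27) for ETFA, 0.30 (SE 0.25) for ETFB and -0.20 (SE 0.44) for ETFDH.

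Peroxisomal oxidation held the members with the lowest fold changes at 48 h with all libraries, EHHADH and ACOX2. EHHADH, the peroxisomal bifunctional enzyme and a known PPARA target, was at 17.2, 10.0 and 14.9 CPM with DMSO at 24 h and at 0, 11.5 and 15.6 CPM with Molidustat. The DMSO libraries at 48 h were at 24.4, 33 and 34.1 CPM and the Molidustat libraries at 13.0, 12.9 and 11.5 CPM. The 48 h groups did not overlap, with each DMSO library above each Molidustat library, DMSO replicate 2 included. The 0 of Molidustat 24 h replicate 1 allows at most 1.07 CPM by its floor of 3 counts, which covers counting error only. The change of EHHADH was -0.60 at 24 h (SE 0.73, adjusted p = 0.999), -1.29 at 48 h (SE 0.74, adjusted p = 0.49) and -0.94 in the average (SE 0.52, adjusted p = 0.523), and without DMSO replicate 2 it was -1.25 at 48 h (SE 0.73, adjusted p = 0.852). Leaving out each library in turn gave -1.42 to -1.17 at 48 h, and -1.19 (without Molidustat 24 h replicate 3) to -0.06 (without Molidustat 24 h replicate 1) at 24 h. Its exons overlap those of EHHADH-AS1 on the opposite strand.

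ACOX2, the oxidase for branched chains and bile acid intermediates, was at 5.97, 3.08 and 15.1 CPM with DMSO and 11.1, 11 and 9.23 CPM with Molidustat at 24 h. After 48 h it was at 15.2, 0 and 7.44 CPM with DMSO and at 3.82, 1.72 and 5.07 CPM with Molidustat. The groups overlapped at both times, at 48 h through the 0 of DMSO replicate 2, which allows at most 3.18 CPM. The change of ACOX2 at 48 h was -1.17 (SE 0.85, adjusted p = 0.611), and -1.64 (SE 0.68, unadjusted p = 0.026, adjusted p = 0.64) without that library. It was -0.33 (adjusted p = 0.914) without DMSO 48 h replicate 1, the highest of its group. ACAA1, the peroxisomal thiolase, changed by 0.51 in the average (SE 0.26, adjusted p = 0.482), the lowest p of any member there, and HSD17B4, the other bifunctional enzyme, by 0.20 (SE 0.30).

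The regulators were counted low. PPARA, the receptor that binds fatty acids, was at 8.96, 5.39 and 15.1 CPM with DMSO and at 10.8, 18.6 and 18.3 CPM with Molidustat at 24 h. At 48 h PPARA was at 11.4, 14.9 and 28.3 CPM with DMSO and at 16.4, 23.6 and 20.5 CPM with Molidustat. The groups overlapped, and the averaged change was 0.40 (SE 0.34, adjusted p = 0.701). PPARGC1A, its coactivator, had between 0 and 17 counts per library. At 24 h it had 1 count over the 3 DMSO libraries and 24 over the 3 Molidustat libraries, a ratio of 17.4 after scaling with an exact 95% counting interval of 2.84 to 717, which leaves out the spread between libraries. Molidustat 24 h replicate 1 had 0 counts of it. In edgeR's test, which includes that spread, the change of PPARGC1A at 24 h was 3.37 and was not called. Its levels at 48 h were 1.63, 7.45 and 0.31 CPM with DMSO and 2.47, 1.72 and 3.19 CPM with Molidustat, overlapping through DMSO replicate 2. Its change at 48 h was -0.13 (SE 1.41, adjusted p = 0.985), and turned to 1.33 (SE 1.62, adjusted p = 0.985) without that library.

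Ketone body metabolism was represented by ACAT1, the mitochondrial thiolase at its first step, and BDH1, which interconverts the ketone bodies. ACAT1 changed by -0.12 in the average (SE 0.32, adjusted p = 0.927), and its exons overlap antisense genes. BDH1 had at most 6 counts in any library and was not tested.

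**Figure D4:**
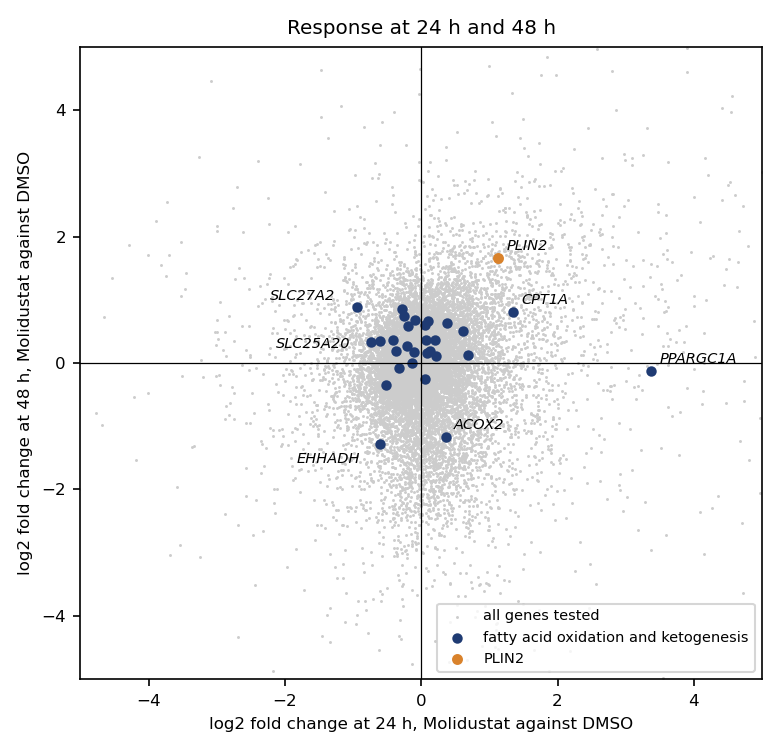
Log2 fold change of Molidustat against DMSO at 24 h (x axis) and at 48 h (y axis), all 12 libraries, for all genes tested (grey, of which 141 lie beyond the axis limit of 5), the 29 tested members (blue) and PLIN2 (orange). Most members lie near 0 on both axes, PPARGC1A lies far right on 1 count in the DMSO 24 h libraries, and ACOX2 and EHHADH are the lowest members at 48 h.

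The second question was whether the response changed with time. For the difference between the 48 h and 24 h responses, edgeR called 0 of 29 members and 0% of all genes, and 0 members had an unadjusted p under 0.05, against 6.78% of all genes. Without DMSO 48 h replicate 2 it called 0 of 30 members and again 0% of all genes. There 1 member, ACOX2, had an unadjusted p under 0.05, against 3.19% of all genes, with a 95% interval of -3.91 to -0.09 for the 48 h minus the 24 h response (unadjusted p = 0.0411, adjusted p = 1). DESeq2 and limma-voom called 0 members, against 0.0142% and 0% of all genes.

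With DMSO alone, no member was called between 24 h and 48 h, with all libraries (0.00701% of all genes called) or without DMSO 48 h replicate 2 (0.0131%). At an unadjusted p under 0.05 there was 1 member with all libraries, PPARGC1A (8.14% of all genes), and 0 without that library (4.03%). With Molidustat, 0 members were called between the times with all libraries (0% of all genes) or without that library (0.0262%). DESeq2 and limma-voom called 0 members in both comparisons, against 0.278% and 0.014% of all genes with DMSO and 0.0882% and 0.00701% with Molidustat. At an unadjusted p under 0.05, the count with Molidustat was 1 with all libraries, CPT2 (4.58% of all genes), and 5 of 30 without that library (9.24%). Of those 5, CPT2 was higher at 48 h by 0.98 (SE 0.31, adjusted p = 0.322), SLC25A20 by 0.99 (SE 0.34, adjusted p = 0.384), ACADVL by 0.74 (SE 0.25, adjusted p = 0.376) and HADHA by 0.66 (SE 0.25, adjusted p = 0.422). ACOX2 was lower by -1.52 (SE 0.63, adjusted p = 0.479). The library left out is in neither Molidustat group, and it entered these p-values through the shared estimate of the spread and the filter.

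A list of 69 other genes of the same and related pathways was measured beside the members, and 60 of them were tested. PLIN2 was the 1 gene of the 60 that was called, at 48 h (0.231% of all genes called) and in the average (1.07%). PLIN2 coats lipid droplets, is a known target of PPARA and is known to rise in hypoxia. It was at 147, 163 and 218 CPM with DMSO and at 386, 304 and 459 CPM with Molidustat at 24 h. At 48 h it was at 157, 113 and 159 CPM with DMSO and at 494, 448 and 414 CPM with Molidustat. Every Molidustat library was above every DMSO library, by group means of 383 ± 77.5 against 176 ± 37.3 CPM at 24 h and 452 ± 40.3 against 143 ± 26.0 CPM at 48 h (SD, n = 3). PLIN2 rose by 1.66 on the log2 scale at 48 h (SE 0.31, adjusted p = 0.0367) and by 1.39 in the average (SE 0.22, adjusted p = 0.00343). At 24 h its change was 1.12 (SE 0.30, adjusted p = 0.278), and without DMSO 48 h replicate 2 it passed there too (1.13, SE 0.23, adjusted p = 0.0234), as at 48 h (adjusted p = 0.015). The call at 48 h was lost on leaving out any of 8 of the 12 libraries (the 3 DMSO 24 h libraries, the 3 Molidustat 48 h libraries, and Molidustat 24 h replicates 1 and 3), with adjusted p = 0.0564 to 0.22, while the call in the average held on leaving out each of the 12 (1.31 to 1.46, adjusted p = 0.000288 to 0.0254).

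In the average, 13 of the 60 other genes had an unadjusted p under 0.05, 5 higher and 8 lower, against 11% of all genes. The counts were 6 higher and 5 lower of 61 without DMSO 48 h replicate 2, against 11.9%. FABP1, the liver fatty acid binding protein, was at 71.2, 66.6 and 188 CPM with DMSO and 131, 60.8 and 340 CPM with Molidustat at 24 h, with overlap. At 48 h it was at 91.8, 37.3 and 126 CPM with DMSO and at 159, 479 and 220 CPM with Molidustat. Its averaged change was 1.21 (SE 0.44, adjusted p = 0.306). With no filter on low counts edgeR called it in the average (1.21, adjusted p = 0.00293, 1.66% of all genes called) and at 48 h (1.69, adjusted p = 0.0024, 2.69%). SLC27A3, an acyl-CoA synthetase whose exons overlap INTS3, changed by 1.27 (SE 0.46, adjusted p = 0.308), and was called by limma-voom at 48 h (1.78, adjusted p = 0.032) and in the average (1.65, adjusted p = 0.025), and in the average by DESeq2 without DMSO 48 h replicate 2 (1.65, adjusted p = 0.00596).

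Among the genes below 0, PPRC1, a relative of PPARGC1A, was at 12.4, 12.3 and 12.4 CPM with DMSO and 5.74, 9.47 and 5.96 CPM with Molidustat at 24 h. At 48 h PPRC1 was at 18.6, 13.8 and 24.1 CPM with DMSO and 9.44, 6.01 and 6.2 CPM with Molidustat. The groups were apart at both times, and the averaged change was -1.10 (SE 0.32, adjusted p = 0.169). DESeq2 called PPRC1 in the average with all libraries (-1.10, adjusted p = 0.0266) and without DMSO 48 h replicate 2 (-1.16, adjusted p = 0.0205), and so did limma-voom (-1.24, adjusted p = 0.0338), which also called it at 48 h (-1.61, adjusted p = 0.0232). GCDH, the glutaryl-CoA dehydrogenase of lysine breakdown, whose exons overlap SYCE2 on the opposite strand, changed by -0.56 (SE 0.20, adjusted p = 0.288), SLC16A1, a carrier of lactate and ketone bodies, by -0.68 (SE 0.26, adjusted p = 0.326) or -0.40 (SE 0.18, adjusted p = 0.39) without DMSO 48 h replicate 2, and PPARGC1B, another coactivator of the family, by -2.59 (SE 0.97, adjusted p = 0.332). PPARGC1B had between 0 and 21 counts per library. DESeq2 called SLC16A1 at 48 h with all libraries (-1.35, adjusted p = 0.0379), where edgeR gave -1.30 (adjusted p = 0.193). Neither called it at 48 h without DMSO 48 h replicate 2, where edgeR gave -0.74 (SE 0.27, adjusted p = 0.506). Without that library, DESeq2 called SLC16A1 lower at 48 h than at 24 h with Molidustat (-0.92, adjusted p = 0.0307).

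The promoters of PLIN2 and CPT1A are printed. PLIN2, which is not a member, was the called gene of the list of other genes, and CPT1A was the member whose call changed with the test. They are RefSeq windows of GRCh38, 5′ to 3′ on the gene's strand, with the letters ACGTG and GCGTG, the core of HIF binding sites, in capitals where they stand on either strand. PLIN2 lies on the minus strand, and its window at chr9:19127443-19127742 held 3 matches of ACGTG and 2 of GCGTG. Both strands of a single CACGTG account for 2 of those 3. CPT1A also lies on the minus strand, and its window at chr11:68844228-68844527 held 1 match of GCGTG.
PLIN2: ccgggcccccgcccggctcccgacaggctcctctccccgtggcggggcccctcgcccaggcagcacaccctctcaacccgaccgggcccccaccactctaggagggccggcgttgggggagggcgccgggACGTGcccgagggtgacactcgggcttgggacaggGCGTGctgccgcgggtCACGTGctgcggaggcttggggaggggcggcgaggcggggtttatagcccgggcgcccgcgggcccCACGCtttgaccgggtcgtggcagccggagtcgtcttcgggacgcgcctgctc
CPT1A: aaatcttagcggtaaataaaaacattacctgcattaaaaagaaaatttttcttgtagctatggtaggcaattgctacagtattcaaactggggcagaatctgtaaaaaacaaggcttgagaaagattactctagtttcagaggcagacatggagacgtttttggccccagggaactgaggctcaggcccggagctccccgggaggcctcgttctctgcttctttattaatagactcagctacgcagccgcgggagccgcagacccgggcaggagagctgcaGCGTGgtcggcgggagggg

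ACGTG stood in 21.4% of 35116 promoter windows of this length and in 6 of 40 windows of the members (15%), where 27 members had a window. GCGTG stood in 36.5% of all windows and in 21 of the 40 (52.5%). AGGTCA, the repeated unit of the sites that PPARA binds with its partner RXR, stood in 13.8% of all windows and in 1 of the 40 (2.5%). The 2 copies of AGGTCA with 1 base between them stood in 0.0228% of all windows and in 0 of the 40. Windows of 1 gene may overlap and are not independent, and such matches describe the letters of these windows alone.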

How the data were processed

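Total RNA of 12 Huh7 libraries was read from the 3′ end of polyadenylated transcripts. The submitters' processing notes name bcl2fastq 2.17.1.14, cutadapt 1.9.1, STAR 2.7.9a, HTSeq 0.11.2, DESeq2 1.26.0 and GRCh38. The deposited values are whole-number counts of reads per gene that the authors made with HTSeq, without normalization. The annotation release, the strand setting and any use of molecular identifiers are not given in the sources used here. All columns were used (0 left out), and 5 summary lines that name no gene stayed out of library sizes and tests. Reads on no feature were 17.1 to 50.4% of the listed reads. GENCODE 44 named 60437 of 60666 genes and gave coordinates.

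In R 4.3.3 with edgeR 4.0.16, filterByExpr (minimum count 10, minimum total 15) kept 14274 genes, library sizes were scaled by TMM, and 1 quasi-likelihood model covered all 4 groups, with p-values adjusted by Benjamini-Hochberg over all genes tested. A gene was called at an adjusted p under 0.05, the study's threshold. CPM values are TMM-scaled, and 3′ counts were not compared between genes as levels, except to name the most abundant gene of a marker list and the highest level of its others. Exons of 18 of the 32 members overlap another gene, and 5 have named pseudogenes. Reads there could have been set aside as ambiguous or not unique, or given to the other gene. The scripts were tested on simulated data.

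The members were chosen by function, and the members and lists were chosen with earlier results of these data known. Named genes are all members and, of the other pathway genes, those called against DMSO or among the 8 with the lowest p in the average. The result of 1 of these genes is not reported here. Alternatives were DESeq2 1.42.0, limma-voom with sample quality weights (limma 3.58.1), RLE or total-count scaling, other filters, a fold threshold, a block on the replicate number, each time point by itself, and each library left out. Figures were drawn with matplotlib 3.10.9. The study's proteome, metabolome and RT-qPCR data were not analysed here.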

Additional observations from a re-analysis of the deposited data

How the results depend on the processing

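EdgeR called 0 members in each of the 6 comparisons under its alternatives, leaving out each of the 12 libraries included, except that the time points fitted alone gave only the comparisons at 24 h and at 48 h, also with 0. The count became 1, CPT1A, under limma-voom with sample quality weights at 48 h (2.13% of all genes called) and in the average (3.03%), and 1, again CPT1A, under DESeq2 without DMSO 48 h replicate 2 in the average (3.44%); the cause was not tested. PPARGC1A at 48 h changed from -0.13 to 2.02 under limma-voom (adjusted p = 0.278) and to 1.33 in edgeR without DMSO 48 h replicate 2, and it had at most 17 counts. The members' median between DMSO 48 h and 24 h ranged from -0.3236 to 0.2229 on leaving out each library, lowest without DMSO 48 h replicate 1 and highest without replicate 2. At 48 h the median of the Molidustat response ranged from 0.0709 to 0.5037. Of 4446 alternative values of single genes, 4177 kept their direction and side of the threshold, 11 lost the call, 20 gained one and 238 had the other sign, none of which had an adjusted p under 0.05 in either fit. All 11 lost calls were PLIN2 at 48 h (adjusted p = 0.0564 to 0.241): under total counts, with the time points fitted alone, with the replicate block, and without any DMSO 24 h library, Molidustat 24 h replicate 1 or 3, or any Molidustat 48 h library.

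Of all genes, 153 were called in the average by edgeR, 362 by DESeq2, 432 by limma-voom and 471 without a filter. Total counts in place of TMM shifted the median of all genes by 0.127 at 48 h, -0.158 between the DMSO times and 0.178 in the difference of responses. Deviations of libraries with the same replicate number correlated between -0.0902 and 0.139, so the numbers did not pair the samples; with the replicate block, 0 members were called and the members' median in the average was 0.164, while PLIN2 at 48 h was 1.68 (adjusted p = 0.0702). Members with few counts, such as SLC27A2 and PPARGC1A, have wide intervals at this depth, and ACSL5 and BDH1 did not pass the filter on low counts.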
